A study of Rattus norvegicus with 6 samples.

Results

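The baseline miRNA repertoire of the rat heart muscle was described from the 3 arrays of the control group, out of 6 arrays in the series. Its members are the 202 miRNAs that were detected on all 3 control arrays, of 758 miRNAs on the array. The control rats were male Sprague–Dawley rats that underwent a sham operation, in which a thread was passed and the coronary artery was not ligated. Their myocardium was taken from the left ventricle 4 weeks after surgery, without infarction (Non-MI), and no agent is given in the labels for this group. Each control array carried the total RNA of 1 myocardial sample, labelled with the dye Cy3, and the samples were picked at random from the rats of the group. They had been through anaesthesia and an opened chest, so the group stands for operated and not for untouched rats. RNA of whole tissue mixes all cell types of the heart, and fewer cells of a type and less RNA per cell cannot be told apart.

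A miRNA is a short RNA that guides an Argonaute protein to messenger RNAs, mostly by pairing of its seed, the bases 2 to 8 from its 5′ end, and thereby lowers translation or stability of the target. The precursor is a hairpin, and its 5p and 3p arms can each give a mature miRNA, of which commonly one is retained and the other is degraded. MiRNAs that share a seed form a family with overlapping targets. In heart muscle, miR-1, miR-133, miR-208 and miR-499 are the known muscle miRNAs, and miR-208a and miR-499 lie inside myosin heavy chain genes.

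The mature sequences of the families that held most of the signal are shown first, because the shares, the arm ratios and the pairs of near copies described later all refer to them. They are from RefSeq (GRCr8), which gave a sequence for 186 of the 202 detected miRNAs and 684 of the 758 on the array. They are written 5′ to 3′ with the seed in capitals.
The miR-1 family and the miR-133 family, the muscle miRNAs:
miR-1-3p: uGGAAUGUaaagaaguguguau
miR-1b: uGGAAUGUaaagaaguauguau
miR-133b-3p: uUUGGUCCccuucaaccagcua
miR-133a-3p: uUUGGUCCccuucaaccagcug
The let-7 family, found in most differentiated tissues:
let-7a-5p: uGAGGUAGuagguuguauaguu
let-7b-5p: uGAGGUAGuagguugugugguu
let-7c-5p: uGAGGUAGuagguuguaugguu
let-7d-5p: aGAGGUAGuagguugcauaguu
let-7e-5p: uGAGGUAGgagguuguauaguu
let-7f-5p: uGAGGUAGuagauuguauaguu
let-7g-5p: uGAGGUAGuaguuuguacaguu
let-7i-5p: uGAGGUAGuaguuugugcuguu
miR-98-5p: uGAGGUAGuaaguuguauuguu
The other families among the 10 with the largest share, each by its brightest member or members:
miR-30c-5p: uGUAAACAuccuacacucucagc
miR-22-3p: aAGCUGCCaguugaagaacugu
miR-23b-3p: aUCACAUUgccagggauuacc
miR-23a-3p: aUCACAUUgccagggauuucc
miR-29a-3p: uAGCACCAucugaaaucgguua
miR-16-5p: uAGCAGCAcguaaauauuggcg
miR-26a-5p: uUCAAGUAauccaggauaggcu
miR-24-3p: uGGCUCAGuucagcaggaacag
The myosin gene miRNAs and the miRNA of endothelial cells, as markers of the tissue:
miR-208a-5p: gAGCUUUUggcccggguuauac
miR-208a-3p: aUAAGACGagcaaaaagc
miR-499-5p: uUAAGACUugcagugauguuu
miR-126a-3p: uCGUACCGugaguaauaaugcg

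A miRNA has 1 to 4 probes and 16 spots on this array, and a probe was counted as detected when its signal exceeded 3 times its error. The signal of a miRNA is the sum over its detected probes, in the intensity units of the scanner software after background subtraction. Of the 758 miRNAs, 206, 218 and 209 were detected on control arrays 1, 2 and 3. On all 3 arrays 202 were detected (26.6%), on 2 arrays 8, on 1 array 11, and on none 537 (70.8%). The lowest signal of a detected miRNA was 1.60, 1.51 and 1.38 on arrays 1, 2 and 3, and no spot was saturated. The 19 miRNAs detected on some arrays reached at most 11.8, so the 202 held at least 99.9% of the detected signal of each array. The highest of the 19 was miR-184, detected on array 1 alone with both of its probes.

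The total signal of the 202 miRNAs was 59556 on array 1, 84579 on array 2 and 57701 on array 3. Array 2 was thus the brightest, by 1.44-fold over the mean of the other 2. Levels are therefore given as the share of each array's total, which needs no scaling between arrays, and ± is the SD over the 3 arrays (n = 3). Because probes differ in how strongly they bind and miRNAs in how well they are labelled, a rank is a rank of signal and not of molecules. No test was run, since 1 group is described and no other group is compared with it.

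A few miRNAs held most of the signal. The brightest miRNA gave 16.3% ± 0.89 of it, the 3 brightest 37.8% ± 1.77, the 10 brightest 59.6% ± 1.17 and the 50 brightest 93.3% ± 0.30. On arrays 1, 2 and 3, the 7, 6 and 6 brightest miRNAs were enough to pass 50% of the signal. Above 1% of the signal lay 24 miRNAs, and the 36 miRNAs below 0.01% added up to 0.236%. From the brightest to the dimmest of the 202, the mean shares spanned 12.76 on the log2 scale.

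**Figure D1:**
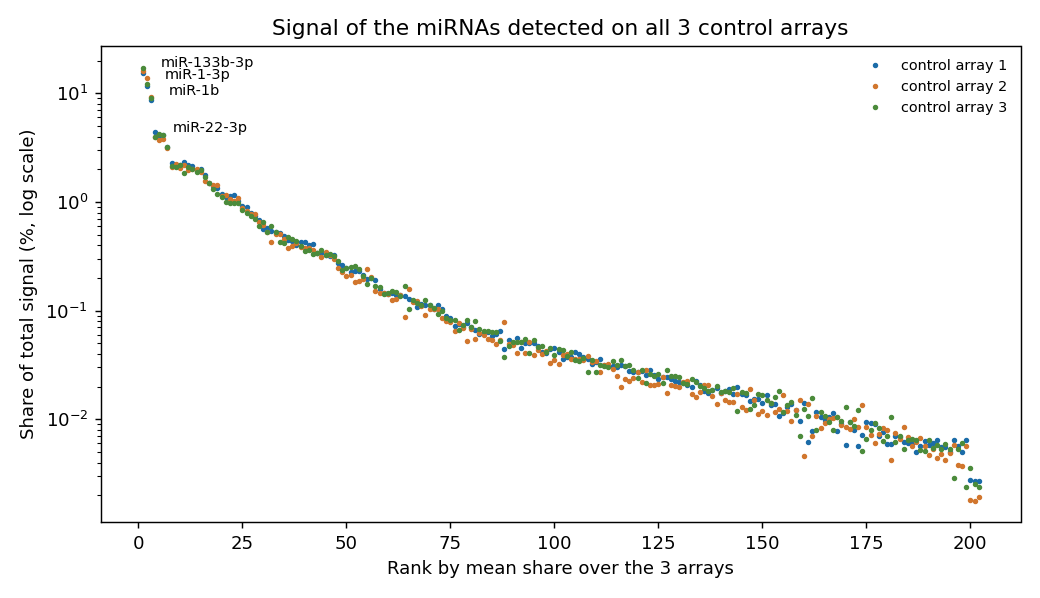
Share of the total signal (percent, log axis) of the 202 miRNAs detected on all 3 control arrays against their rank by mean share, with 1 point per array. The 3 brightest miRNAs stand apart, with every point between 8.72% and 17.2%, and the arrays lie closer together among the bright miRNAs (median SD of the log2 share 0.081 over the 50 brightest) than among the 50 dimmest (0.26).

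The muscle miRNAs miR-133 and miR-1 led the list. The brightest miRNA, miR-133b-3p, had signals of 9222, 13643 and 9953 on arrays 1, 2 and 3. MiR-1-3p followed with 6929, 11740 and 7013, a share of 12.6% ± 1.18. MiR-1b was the third, with 5194, 7773 and 5243 and shares of 8.72%, 9.19% and 9.09%. Their order was the same on every array, as was the step down to miR-22-3p. MiR-22-3p, a miRNA studied in cardiac hypertrophy, had signals of 2625, 3379 and 2271 and held 4.11% ± 0.26.

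Below miR-22-3p the ranks were close. Let-7c-5p and let-7b-5p held 4.01% ± 0.23 and 4.01% ± 0.21, and their order changed between arrays, as did that of miR-22-3p and let-7c-5p. Let-7a-5p, with 3.17% ± 0.03, lay under both on every array and above everything that followed. The next 8 miRNAs lay within a narrow band. They were miR-26a-5p at 2.18%, miR-30c-5p at 2.17%, miR-24-3p at 2.14%, miR-29a-3p at 2.13%, miR-23b-3p at 2.08%, miR-126a-3p at 2.05%, let-7f-5p at 1.97% and miR-23a-3p at 1.96%. No pair of neighbours within this band kept its order on all 3 arrays. Of the 201 pairs of neighbouring ranks among the 202, 30 kept their order on all 3 arrays, 18 of them among the first 49 pairs and 1 among the last 49.

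The shares of the 3 arrays followed each other closely. Across the 202 miRNAs, Pearson's r of the log2 shares was 0.995, 0.995 and 0.991 for arrays 1 and 2, 1 and 3, and 2 and 3, as a description over miRNAs that share probes and array. The SD of the log2 share had a median of 0.13. It was smallest for miR-107-3p (0.0083), let-7d-5p (0.0094), miR-30c-2-3p (0.012), let-7a-5p (0.015) and miR-342-3p (0.015), of which miR-30c-2-3p was dim, with signals of 10.4, 14.9 and 10.2. It was largest for 5 dim miRNAs, miR-3547 (0.89), miR-30b-3p (0.78), miR-10b-5p (0.71), miR-188-5p (0.67) and miR-99a-3p (0.63). MiR-3547 was lowest on the brightest array, with signals of 8.48, 3.89 and 7.20.

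The dimmest of the 202 lay at the low end of the detected signals. MiR-338-5p had signals of 1.61, 1.62 and 1.39, and miR-874-3p had 1.60, 1.51 and 1.48, the lowest detected value on arrays 1 and 2. Let-7d-3p, the passenger arm of a let-7 hairpin, had 1.63, 1.53 and 2.07. MiR-30b-3p had 3.87, 4.82 and 1.38 and miR-466b-2-3p 2.98, 3.14 and 3.52. Although array 2 was the brightest in total, it gave the lowest signal of the 3 for let-7d-3p.

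Grouped by seed, the 202 miRNAs formed 163 families, of which 147 had a sequence and 21 held 2 or more members. These 21 families with 60 miRNAs carried 79.8% of the signal. The first 3 alone, which are the miR-1, let-7 and miR-133 families, carried 55.7% ± 1.58. The miRNAs without a sequence in the table each stayed alone, among them miR-30b-5p and miR-30d-5p.

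The miR-1 seed GGAAUGU was first, with 20.4%, 23.1% and 21.2% of the signal on arrays 1, 2 and 3 (21.6% ± 1.38). It came from miR-1-3p and miR-1b, while miR-206-3p, the member known from skeletal muscle, was not detected on any array. The let-7 seed GAGGUAG was the second with 17.5%, 16.9% and 17.4% (17.3% ± 0.33). All 9 miRNAs with this seed on the array were detected, from let-7c-5p down to miR-98-5p at 0.0386%. Most of the family's share came from let-7c-5p (4.01%), let-7b-5p (4.01%) and let-7a-5p (3.17%). The miR-133 seed UUGGUCC was the third with 16.1%, 16.7% and 17.9% (16.9% ± 0.94), and nearly all of it was miR-133b-3p. On array 3 the miR-133 family was above the let-7 family, and on arrays 1 and 2 it was below, so their order was not fixed.

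The next 7 families followed at a distance. The miR-30 seed GUAAACA, with miR-30c-5p, miR-30a-5p and miR-30e-5p, held 4.33% ± 0.15, and miR-384-5p with the same seed was not detected. MiR-22-3p, alone with its seed, was followed by miR-23a-3p and miR-23b-3p (UCACAUU, 4.04% ± 0.17). The miR-29 family, whose known targets include collagen messenger RNAs, held 3.92% ± 0.35 (AGCACCA), with 4.22%, 4.01% and 3.54% on arrays 1, 2 and 3. The miR-15/16 family (AGCAGCA, 5 members led by miR-16-5p) held 2.82% ± 0.15, the miR-26 family (UCAAGUA) 2.66% ± 0.14 and miR-24-3p (GGCUCAG) 2.14% ± 0.09. Together the 10 families held 79.7% of the signal.

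Grouping by the number in the name in place of the seed joined the miR-30 miRNAs without a sequence. It also joined 3p arms with other seeds, such as miR-30a-3p (UUUCAGU, 0.144%). The miR-30 group then had 10 members and 5.54% ± 0.16. The first 3 groups were miR-1 with 21.6%, let-7 with 17.2% and miR-133 with 17.2%.

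**Figure D2:**
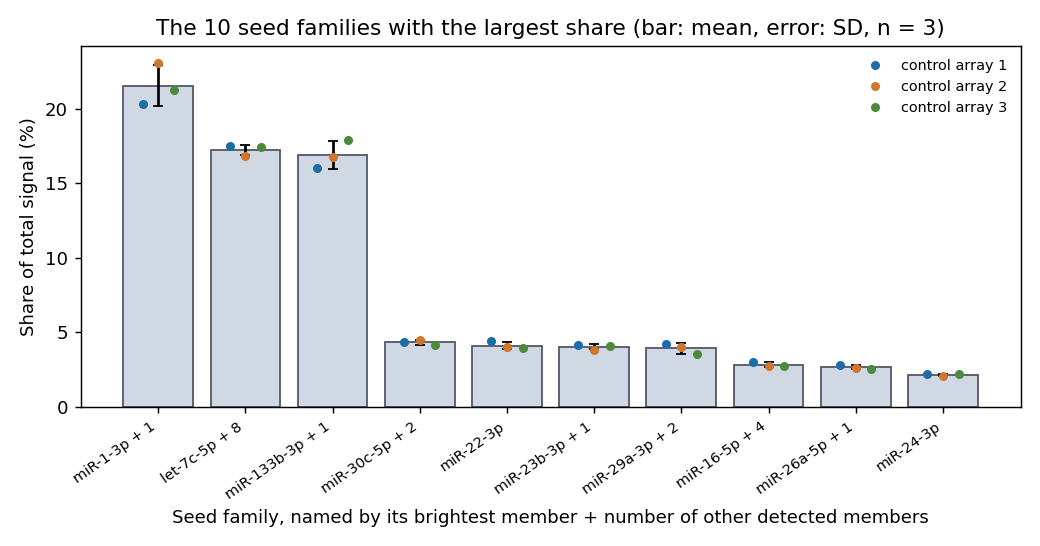
Share of the total signal (percent, linear axis) of the 10 seed families with the largest share, as bars of the mean over the 3 control arrays with the SD, and 1 point per array. The miR-1, let-7 and miR-133 families reach 21.6%, 17.3% and 16.9%, and the 4th, miR-30, reaches 4.33%.

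Members of a family often differ by 1 or 2 bases, and such near copies held much of the signal. Among miRNAs with a sequence, 44 pairs lay within 2 edits of each other. In 29 of these pairs both miRNAs were detected, and in 4 pairs only one of them was. The 40 detected miRNAs that belong to such a pair carried 71.4% of the signal. How far a probe also binds the near copy was not tested, so the split of signal within a pair is less certain than the sum.

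The near copies were unequal in some pairs and alike in others. Positions are counted from 1 at the 5′ end of the miRNA. MiR-133a-3p and miR-133b-3p differ by G22A, the last base, and miR-133b-3p was 26.8-fold brighter, with a log2 ratio of miR-133a-3p over miR-133b-3p of -4.74 ± 0.026. Both probes of each were detected on every array, and the signals of miR-133a-3p were 338, 514 and 377. MiR-1-3p and miR-1b differ by G17A, and miR-1-3p was 1.39-fold brighter. MiR-19a-3p and miR-19b-3p, of the miR-17-92 cluster, differ by U11C, and miR-19b-3p was 23.0-fold brighter.

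Within the let-7 family the range was wide. Let-7b-5p and let-7c-5p differ by G17A and were alike, with a fold of 1.00. Let-7c-5p and miR-98-5p differ by G11A and G19U, and let-7c-5p was 104-fold brighter, the largest fold of the 29 pairs. MiR-103-3p and miR-107-3p, which differ by G22C, were within 1.05-fold, and miR-23a-3p and miR-23b-3p, which differ by U19A, within 1.06-fold. The median over the 29 pairs was 2.03-fold.

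The hairpins of 5 miRNAs are shown because their arms gave the contrasts described next. The sequences and positions are from RefSeq on GRCr8, 5′ to 3′, with both mature arms in capitals. Mir22 lies at chr10:60805331-60805425 (+) and Mirlet7d at chr17:16322260-16322357 (+). Mir133b lies at chr9:30594582-30594665 (+). Mir140 lies at chr19:52375293-52375391 (+), within the bounds of Wwp2, a ubiquitin ligase gene. Mir208a lies at chr15:32395552-32395634 (-), within the bounds of Myh6, the alpha myosin heavy chain gene.
Mir22: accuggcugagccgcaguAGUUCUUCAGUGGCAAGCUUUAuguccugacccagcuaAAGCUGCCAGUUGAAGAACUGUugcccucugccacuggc
Mirlet7d: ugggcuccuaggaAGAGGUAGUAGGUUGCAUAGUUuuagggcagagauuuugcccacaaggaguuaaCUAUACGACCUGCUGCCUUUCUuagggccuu
Mir133b: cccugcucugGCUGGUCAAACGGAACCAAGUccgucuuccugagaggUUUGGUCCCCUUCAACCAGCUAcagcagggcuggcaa
Mir140: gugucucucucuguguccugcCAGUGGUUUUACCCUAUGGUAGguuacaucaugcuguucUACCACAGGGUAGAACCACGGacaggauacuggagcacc
Mir208a: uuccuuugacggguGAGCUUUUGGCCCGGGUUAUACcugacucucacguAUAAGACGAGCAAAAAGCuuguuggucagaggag

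The array carries both arms of 281 precursors, and most of those with any signal showed 1 arm. Both arms were detected on all 3 arrays for 26 precursors, and 1 arm with the other on no array for 99, of which 48 were 5p and 51 were 3p. Neither arm was detected on any array for 142, and the other 14 had an arm detected on 1 or 2 arrays. By signal, 5p arms carried 35.6% ± 0.75 (87 miRNAs), 3p arms 53.3% ± 0.65 (89 miRNAs), and the 26 miRNAs whose name gives no arm carried 11.1%.

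Of the 26 precursors with both arms, the 5p arm was brighter on all 3 arrays in 13 and the 3p arm in 12. The order of the arms changed between arrays in 1, miR-140. The brighter arm exceeded the other by over 10-fold in 10 precursors and by under 2-fold in 6. The SD of the log2 ratio over arrays had a median of 0.16, against a median size of the log2 ratio of 2.94.

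On the 5p side, let-7d had the largest ratio. Its 5p arm had signals of 885, 1270 and 867 against 1.63, 1.53 and 2.07 for the 3p arm, a log2 ratio of 9.16 ± 0.50. MiR-99a followed with 7.47 ± 0.55, let-7b with 7.34 ± 0.17, miR-30b with 6.41 ± 0.72 and miR-322 with 4.54 ± 0.11. The 3p arms of let-7d, miR-99a and miR-30b were near the lowest detected signal, and their ratios had the larger SDs.

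On the 3p side, miR-1 had the largest ratio. Its 5p arm had signals of 11.4, 12.1 and 10.2 against 6929, 11740 and 7013 for miR-1-3p, a log2 ratio of 5p over 3p of -9.53 ± 0.35. MiR-22 was next with -7.58 ± 0.12, from 5p signals of 12.5, 18.9 and 12.2. MiR-126a of endothelial cells had -5.35 ± 0.05, with 32.1, 42.1 and 27.5 for the 5p arm and 1279, 1691 and 1160 for the 3p arm. MiR-29c had -4.54 ± 0.10 and miR-338 -3.11 ± 0.08. The size of the extreme ratios depended on the background correction and its offset. The normexp alternative adds an offset of 50 to every spot, which by itself shrinks a ratio to a dim arm. With normexp, the log2 ratio was -5.91 for miR-1, which then lay under miR-22 in size at -6.25, and 5.01 for let-7d, with the direction kept.

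In a few precursors the arms were close. MiR-140, known from cartilage, had 5p signals of 45.1, 64.9 and 38.0 and 3p signals of 41.7, 56.8 and 40.5, a log2 ratio of 0.07 ± 0.15. MiR-3584 had -0.48 ± 0.17 and miR-483, which lies in the gene of a growth factor, Igf2, had 0.49 ± 0.12. Among the muscle miRNAs, miR-133a had -0.87 ± 0.11, with 195, 291 and 189 for the 5p arm. MiR-208a had 2.25 ± 0.47, with 5p signals of 18.3, 24.4 and 19.7 and 3p signals of 3.72, 7.23 and 3.07, the latter from 1 of 2 probes.

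**Figure D3:**
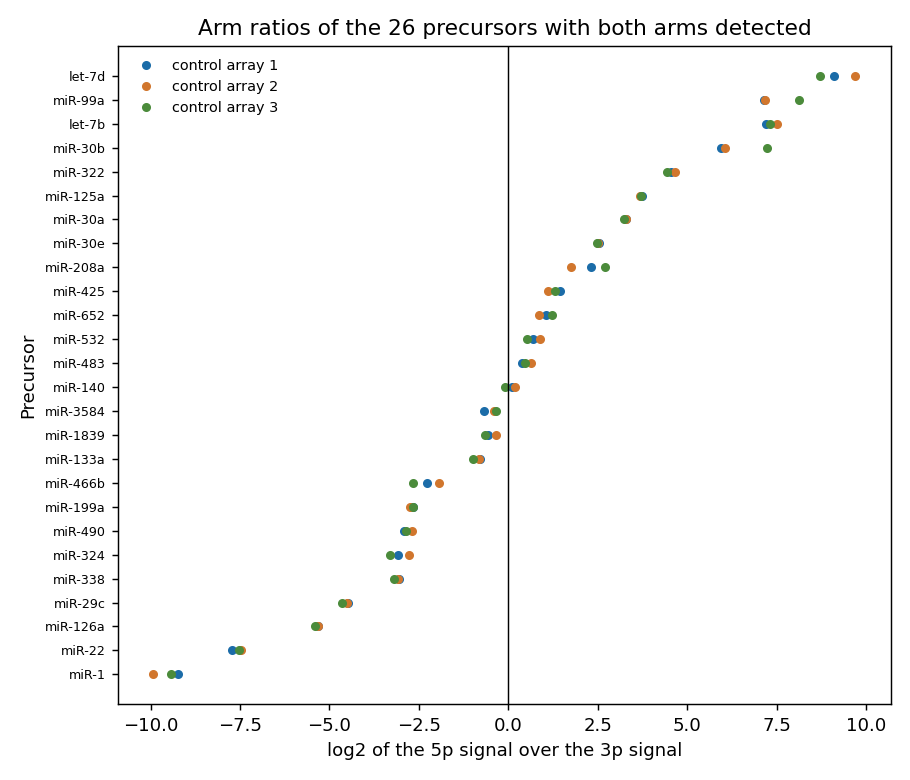
Log2 ratio of the 5p arm over the 3p arm for the 26 precursors with both arms detected on all 3 control arrays, with 1 point per array. The means over arrays run from -9.53 for miR-1 to 9.16 for let-7d, and the points of miR-140 fall on both sides of 0.

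Where the other arm was not detected, the ratio is a nominal bound. It was set on each array against the lowest detected signal or the arm's own probe sum if higher. The lowest detected signal is not the detection limit of every arm, since on array 2 probes of miR-184 with 2.49 and 2.80 were not detected. The values are therefore not strict lower limits, and the background correction was not varied for them. The lowest of the 3 arrays is given. The largest was miR-133b, whose 3p arm was 5774-fold above the level set for its 5p arm. How far its probes also bind the near copy miR-133a-3p was not tested. The 5p arm of miR-26a was 859-fold above the level of its 3p arm. The 3p arms of miR-29a, miR-23b and miR-23a were 777-fold, 811-fold and 745-fold above the levels of their 5p arms.

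The label of the tissue was checked against lists of miRNAs known from cell types and tissues. Muscle miRNAs were bright. Of 12 miRNAs on the cardiomyocyte and striated muscle list, 8 were detected on all 3 arrays, and together they held 28.2%, 31.2% and 30.5% of the signal. The list leaves out miR-1b. Besides miR-1 and miR-133, they were miR-499-5p, with signals of 75.8, 133 and 59.4, and both arms of miR-208a. The share of miR-499-5p was 0.129% ± 0.027 and that of miR-208a-5p 0.0313% ± 0.0027, so both myosin gene miRNAs lay far under miR-1 and miR-133 in signal. Neither arm of miR-208b, which lies in the beta myosin heavy chain gene, was detected, nor were miR-499-3p and miR-133b-5p.

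MiRNAs known from endothelial cells, smooth muscle and fibroblasts were detected too, and the share of these lists can be read against the 26.6% of all miRNAs that were detected. Both arms of miR-126a, the endothelial miRNA, were detected and held 2.10% ± 0.09. Of 4 smooth muscle and pericyte miRNAs, miR-143-3p (796, 1202 and 684) and miR-145-5p (53.2, 68.4 and 49.6) were detected on all 3 arrays and held 1.40% ± 0.12, and miR-143-5p was detected on array 2 alone. Of 12 fibroblast and matrix miRNAs, 8 were detected and held 5.00% ± 0.44. The miR-29 arms, which are not particular to fibroblasts, gave most of this, while miR-21-5p held 0.454% ± 0.032, miR-199a-3p 0.368% ± 0.041 and miR-214-3p 0.171% ± 0.020.

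MiRNAs known from blood cells held a small part of the signal. Of 12 leukocyte miRNAs, 6 were detected on all 3 arrays and held 0.753% ± 0.037. The brightest was miR-150-5p, known from lymphocytes, with 239, 356 and 252, and miR-146a-5p was next with 117, 203 and 102. MiR-223-3p of myeloid cells had 42.0, 58.6 and 42.4, and miR-155-5p was near the limit with 3.38, 5.69 and 3.04. Of 5 red blood cell miRNAs, miR-486, which muscle also makes, and miR-451-5p were detected and held 0.468% ± 0.065. MiR-451-5p had signals of 81.5, 74.7 and 97.1 and so was lowest on the brightest array. Both arms of miR-144 were below detection.

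**Figure D4:**
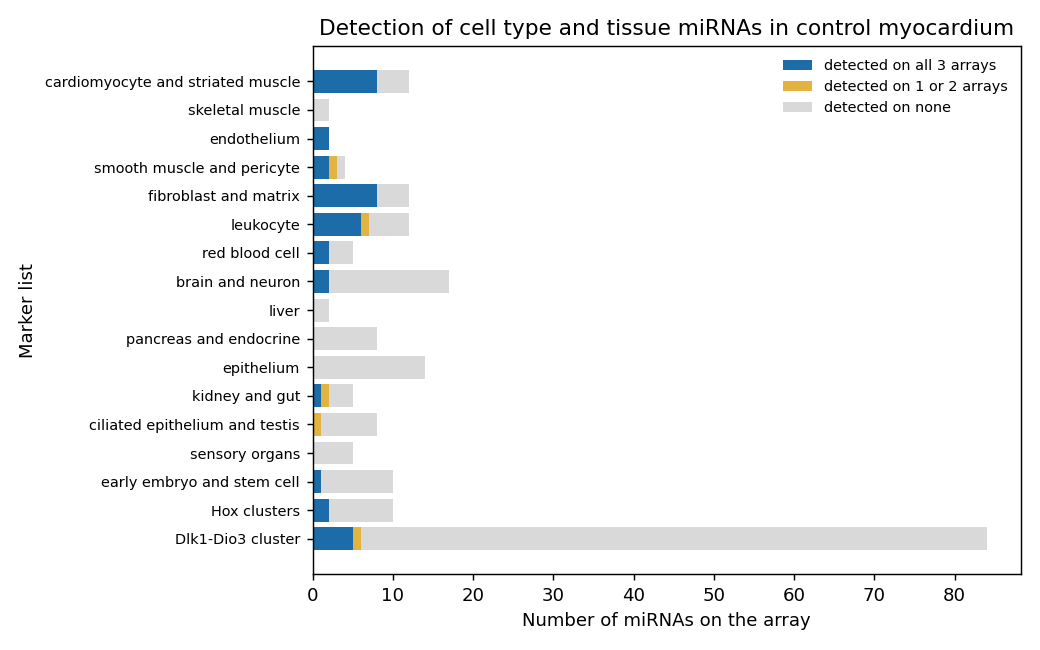
Number of miRNAs of each cell type, tissue or cluster list that were detected on all 3 control arrays, on 1 or 2, or on none. On all 3 arrays, the 6 lists of heart and blood cell types have 28 of 47 miRNAs detected, and the 9 lists of other tissues have 4 of 71.

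MiRNAs of other tissues were mostly below detection. Over 9 such lists (skeletal muscle, brain and neuron, liver, pancreas and endocrine, epithelium, kidney and gut, ciliated epithelium and testis, sensory organs, early embryo and stem cell), 4 of 71 miRNAs were detected on all 3 arrays, 2 on 1 or 2 arrays and 65 on none. The detected share was 5.63%, against 26.6% of all miRNAs on the array, and the 4 held 0.172% of the signal. The brain and neuron list leaves out miR-129-1-3p, detected on all 3 arrays with 5.41, 5.12 and 5.29. It also leaves out miR-129-2-3p, detected on arrays 2 and 3. For 6 of the 9 lists no listed miRNA was detected on all 3 arrays. Neither arm of miR-122 of the liver, miR-124 of neurons, miR-375 of endocrine cells or miR-206 of skeletal muscle was detected, and none of the 14 epithelial miRNAs, which include the miR-200 family, was.

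The probe sums of these miRNAs were low, from below 0 to 1.93. MiR-122-5p had -1.11, -0.29 and -0.85, miR-124-3p had -0.55, -1.06 and -1.11, and miR-206-3p had -1.97, -2.59 and -2.16 as the sum of all its probes. MiR-206-3p shares its seed with miR-1-3p, which gave 6929 to 11740 on the same arrays. The other arm, miR-206-5p, had 1.93, 1.80 and 1.89, above the lowest detected signal of each array, though none of its probes was detected. The highest single probe sum of the miRNAs without detection examined in this way was 2.53. It came from miR-132-3p on array 2, which had 1.32 and 1.51 on arrays 1 and 3. A miRNA that is not detected has no probe over 3 times its error, which does not show that it is absent from the tissue.

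The 4 listed exceptions were modest. MiR-212-3p, known from neurons, had signals of 39.7, 46.8 and 46.1, and its cluster partner miR-132 was below detection in both arms. MiR-128-3p, also known from neurons, had 14.7, 20.6 and 12.4. MiR-192-5p of the kidney and gut list had 3.71, 11.7 and 6.19. MiR-290, from the embryonic stem cell cluster, had 45.7, 44.5 and 47.4, while the other 9 miRNAs of that list were on no array. The 2 listed miRNAs detected on some arrays were miR-194-5p and miR-34c-5p.

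Lists of genomic clusters were read against the same 26.6% of all miRNAs. Of 10 miRNAs of the Hox clusters, miR-10a-5p and miR-10b-5p were detected, a share near that of all miRNAs, and the 6 arms of the miR-196 miRNAs were not. Of 84 miRNAs of the imprinted Dlk1-Dio3 cluster, 5 were detected on all 3 arrays, 1 on some arrays and 78 on none. The list leaves out miR-1188-3p, detected on all 3 arrays with 14.5, 14.8 and 16.3, whose gene lies in a row with Mir434, Mir136 and Mir341 of the cluster. The 5 were miR-494-3p (67.0, 76.8 and 72.3), miR-409a-3p (24.8, 27.4 and 25.8), miR-667-3p (10.1, 10.3 and 10.1), miR-668 (0.0129%, 0.0118% and 0.0135% of the signal) and miR-487b-3p (6.36, 10.5 and 10.6). In each of the 5, array 2 exceeded the mean of arrays 1 and 3 by less than its total did. A ratio under that of the total is not particular to them, since the median ratio over all 202 miRNAs was 1.37, also under the 1.44 of the total. Each of the 5 lay under that median as well. Whether the 5 differ from the other miRNAs in this was not tested.

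Neighbouring miRNA genes were compared next, with gene positions from RefSeq (GRCr8). Of 434 miRNA genes with a miRNA on the array, 173 had one detected on all 3 arrays (39.9%). Of 110 pairs that lie next to each other on the same strand with no gene between, both were detected in 28 and neither was on any array in 52. In 24 pairs 1 gene was detected on all 3 arrays and the other on none. These counts depend on which miRNAs are assigned to a gene. MiR-125b-5p was counted for Mir125b2 and not for Mir125b1, so Mirlet7a-2 and Mir125b1 count as a pair that differs. MiR-99a-5p, which has no sequence in the table, was not counted for Mir99a. The first kind includes Mir23a, Mir27a and Mir24-2, with 5.17% of the signal, and Mir23b, Mir27b and Mir24-1, with 5.11%. Both counts include miR-24-3p, which either cluster can give.

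The pairs that differed included bright miRNAs. The brightest miRNA of the array, miR-133b-3p, belongs to Mir133b by its name, and Mir206 beside that gene was not detected. How far the probes of miR-133b-3p also bind miR-133a-3p, which differs by 1 base, was not tested. Mir451a was detected with Mir144 not detected, and Mir290 was the only one of 7 genes in its row with a detected miRNA. Of 11 neighbouring genes in the Dlk1-Dio3 region from Mir380 to Mir376c, 2 were detected.

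The names and sequences of the detected miRNAs differed from those of the others. Of the 186 detected miRNAs with a sequence, 47.8% began with U, against 31.6% of the 481 that were on no array. By signal, 83.1% of that of the sequence-matched miRNAs came from miRNAs that begin with U. Both sets had a median length of 22 bases, and the median GC content was 50% in the detected set and 47.6% in the other. By the number in the name, which roughly follows the order of discovery, 59 of 121 miRNAs (48.8%) with numbers from 1 to 99 were detected and held 67.0% ± 1.01 of the signal. From 1000 upward, 28 of 138 were detected (20.3%), with 1.32% ± 0.17 of the signal.

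The brighter array 2 did not raise all miRNAs alike. Over the 202, the ratio of array 2 to the mean of arrays 1 and 3 had a median of 1.37, with 1.42 for the 50 brightest and 1.30 for the 100 dimmest. For 49 miRNAs the ratio was under 1.2, and for 14 of these it was under 1. Of the 49, 35 were among the 100 dimmest and 2 among the 50 brightest, and they held 2.60% of the signal. Their median GC content was 57.9%, against 47.6% for the rest, and 22 of the 49 had numbers of 500 or more, a class with 46 members in all. The brightest of them was miR-1224, with 319, 365 and 347.

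At the other end, 6 miRNAs were over 2-fold higher on array 2. MiR-10b-5p had 4.27, 11.3 and 2.93, a ratio of 3.15, and miR-10a-5p had 26.5, 67.2 and 21.5, a ratio of 2.80. Both lie in Hox clusters. MiR-31a-5p (2.60), miR-192-5p (2.37), miR-208a-3p (2.13) and miR-148b-3p (2.11) were the others. What sets the rat of array 2 apart in these miRNAs was not tested.

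**Figure D5:**
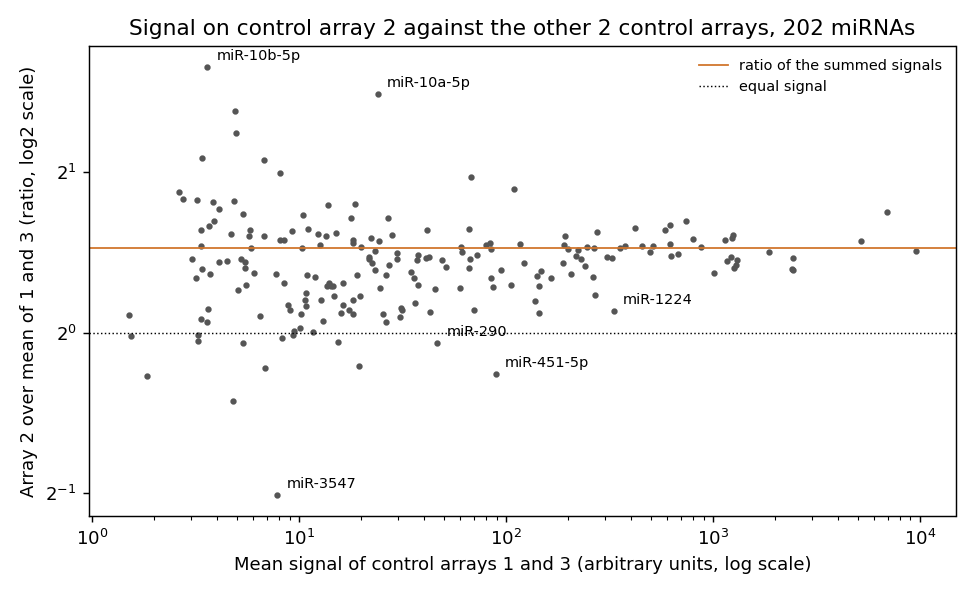
Ratio of the signal on control array 2 to the mean of control arrays 1 and 3 (log axis) against that mean signal (arbitrary units, log axis) for the 202 miRNAs, with 1 point per miRNA. Bright miRNAs lie near 1.42, and the dim ones spread from 0.496 to 3.15, with miR-10b-5p and miR-10a-5p highest.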

How the data were processed

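Myocardial miRNAs of the sham rats were hybridised to Agilent miRNA chips in a single colour. The authors deposited spot intensity values from Agilent Feature Extraction 10.7.1.1, with background removed and no scaling. Each array has 758 miRNAs, 1806 probes and 12128 spots. The label protocol names a cRNA amplification kit. The authors also deposited normalized log2 values, whose method and centring are not given in the sources used here. The deposited total of a miRNA can carry another miRNA's signal, so totals were rebuilt from the probes over 3 times their error. The software's detection flag equalled having at least 1 such probe. Shares, ratios, SDs and the quantile alternative were computed in Python 3.11.15 (pandas 2.3.3, numpy 2.4.6, matplotlib 3.10.9, edlib 1.3.9.post1). The normexp correction was run in R 4.3.3 with limma 3.58.1. The sums were tested on simulated data. Groups and replicates follow the sample titles. The model arrays were not used here.

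The text names the 15 brightest and 5 dimmest miRNAs, the 10 largest seed families, the 5 highest and lowest arm ratios, the 3 nearest to 0, the 5 largest bounds, the 5 largest and smallest SDs, and list members. Members and lists were chosen with earlier results of these data known. The near copies, neighbouring genes, hairpins, name numbers, sequence features and the thresholds of 1.2-fold and 2-fold for array 2 were chosen after values were seen, as were miRNAs named with them and miR-184, miR-133a and miR-208a. The alternatives were the deposited totals, all probes, the mean over probes, processed spot signals, normexp with an offset of 50, quantile normalization, the authors' values, other detection rules, seeds of bases 2 to 7, families by number and leaving out each array. In the looser detection rules, a miRNA not detected on an array took that array's lowest detected signal. The number of arrays and the detection limit set the precision.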

Additional observations from a re-analysis of the deposited data

How the results depend on the processing

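The number of miRNAs detected, 202, lay between 157 and 222 under the other detection rules, and between 203 and 207 with an array left out. The share of the 10 brightest, 59.6%, was 51.7% with normexp and its offset of 50, and 56.5% with the authors' values. It was 59.3% to 60.3% with an array left out. The brightest seed family held 18.6% with normexp, 16.9% with the deposited totals and 18.9% with the authors' values, where let-7 was first and miR-1 had 18.8%. With an array left out it held 20.8% to 22.1%. Precursors with both arms detected numbered 15 when a probe had to exceed 5 times its error, 31 with 2 times its error or detection on at least 1 array, and 26 to 27 with an array left out. Detected miRNAs on the lists of other tissues numbered 3 with 5 times the error and 6 with detection on at least 2 arrays or on at least 1. They numbered 4 to 5 with an array left out.

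The log2 arm ratio reversed with the deposited totals for miR-338 (0.16), miR-30b (-1.87) and let-7d (-1.42), since those totals carry another miRNA's signal, and with the mean over detected probes for miR-483 (-0.51), since its arms have different numbers of detected probes. With normexp the extreme log2 arm ratios shrank, as its offset of 50 lifts the dim arms. They were -5.91 for miR-1, 5.01 for let-7d, 3.52 for miR-99a, 4.17 for let-7b, 2.53 for miR-30b and -1.16 for miR-338. Of 526 single values, 417 moved by less than the spread between arrays or not at all, 105 moved further and 4 reversed. The settings numbered 16, but the shorter seed and the families by number gave none of the 526. When detection was required on fewer arrays, the arm ratios rested on the same signals and could not move. The 417 therefore include values that a setting could not change. The 15 brightest miRNAs were the same in all settings but the deposited totals, which kept 12 of them. Signals near the error of a probe limit what can be said of the dimmest arms. No paired analysis was possible because 1 group was described and no test was run.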
